A study of Mus musculus with 11 samples.

Results

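Liver RNA of lean mice that expressed the acetylation-mimicking FXR-K217Q was compared with that of lean mice that expressed FXR-WT, gene by gene and pathway by pathway. The 5 arrays were taken by their titles, FXR-K217Q replicates 1 to 3 and FXR-WT replicates 1 and 2 of the lean group, out of 11 arrays in the series. All 5 came from male C57BL/6J mice labelled as 8 weeks old and lean. The constructs were delivered by adenovirus, and a week later every mouse, the FXR-WT controls included, received the synthetic FXR agonist GW4064 at 30 mg/kg in corn oil overnight. No lean array without agonist or without a construct was analysed here, and the labels name no deletion of the mouse's own FXR, so a difference between the groups is one between 2 delivered receptors under the same agonist. The other 6 arrays came from obese mice of the same strain, sex and labelled age, 3 with FXR-WT and 3 with FXR-K217R, also given GW4064. Array titles carry the diet code ND in the lean group and HFD in the obese group.

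FXR (Nr1h4) is the nuclear receptor that bile acids activate. In the liver it lowers bile acid synthesis, raises bile acid export and acts on lipid, glucose and inflammatory genes. Its lysines can be acetylated, and glutamine in place of lysine resembles the acetylated form, whereas arginine cannot be acetylated. The study's title concerns a switch of FXR between acetylation and SUMO attachment in obesity, and FXR-K217Q in lean liver asks what the acetylated form does without obesity.

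Values are normalized log2 intensities, a scale on which 1 unit is a doubling, and a difference is the FXR-K217Q mean minus the FXR-WT mean. Of 45281 probes, 18263 to 19425 were detected on each lean array, and 15469 genes were tested. A probe had on average 41.9 to 43.8 beads per lean array, and the median standard error over beads was 3.64% to 3.96% of the signal, so the number of arrays limits the precision. The labels do not say that the replicates are separate animals, and the p-values then measure only the spread between samples. That spread was estimated within the groups of all 11 arrays, so the obese arrays also enter the SE and p-values of the lean differences. The tissue carried its labelled markers. Over the lean arrays the 7 hepatocyte-defining markers spanned 8.24 to 15.11. Of these, Ttr, Apoa1 and Cyp2e1, abundant hepatocyte transcripts, lay between 14.67 and 15.02 on every lean array. The 19 tested hepatocyte genes had a median difference of 0.02.

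The lean FXR-K217Q arrays did not form one tight group. Across genes, replicates 1 and 2 correlated at 0.992, replicate 3 correlated with them at 0.981 and 0.982, and replicate 3 correlated at 0.988 with FXR-WT replicate 2. Between FXR-K217Q replicates 1 and 2, 120 genes lay at least 1 unit apart, against 707 between replicates 1 and 3 and 659 between replicates 2 and 3. Between both FXR-WT arrays 141 genes did. The first principal component of the 5 arrays (45.3% of the variance) set FXR-K217Q replicates 1 and 2 against replicate 3, and the second (24.7%) set all 3 FXR-K217Q arrays against both FXR-WT arrays. Results that rest on replicate 3 are therefore given with and without it.

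No gene passed 5% FDR in limma with Benjamini-Hochberg adjustment over all genes (0 of 15469, 0%), and the smallest adjusted p was 0.149, shared by 23 genes. At an unadjusted p under 0.05 there were 1113 genes (7.2%), 455 higher (2.94%) and 658 lower (4.25%). The median difference over all genes was -0.003, with 7641 genes above 0. In 1592 genes (10.3%) both FXR-WT values lay under all 3 FXR-K217Q values, and in 1859 genes (12%) they lay above them. An exact permutation test of 3 arrays against 2 cannot give a two-sided p under 0.1. Differences of at least 1 unit were seen in 45 genes on the higher side and 39 on the lower, of which 33 and 31 had groups that did not overlap. The design was also simulated with independent noise, equal in all groups, and 200 changed genes. There 78% of genes changed by 1 unit and 99% of those changed by 2 units passed 5% FDR. The simulated arrays hold no outlying replicate, unlike FXR-K217Q replicate 3, so these percentages need not hold for the real arrays. Since no gene passed 5% FDR, everything below is a description of differences that did not pass over all genes. The counts of members are to be read against the shares over all genes given above.

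**Figure D1:**
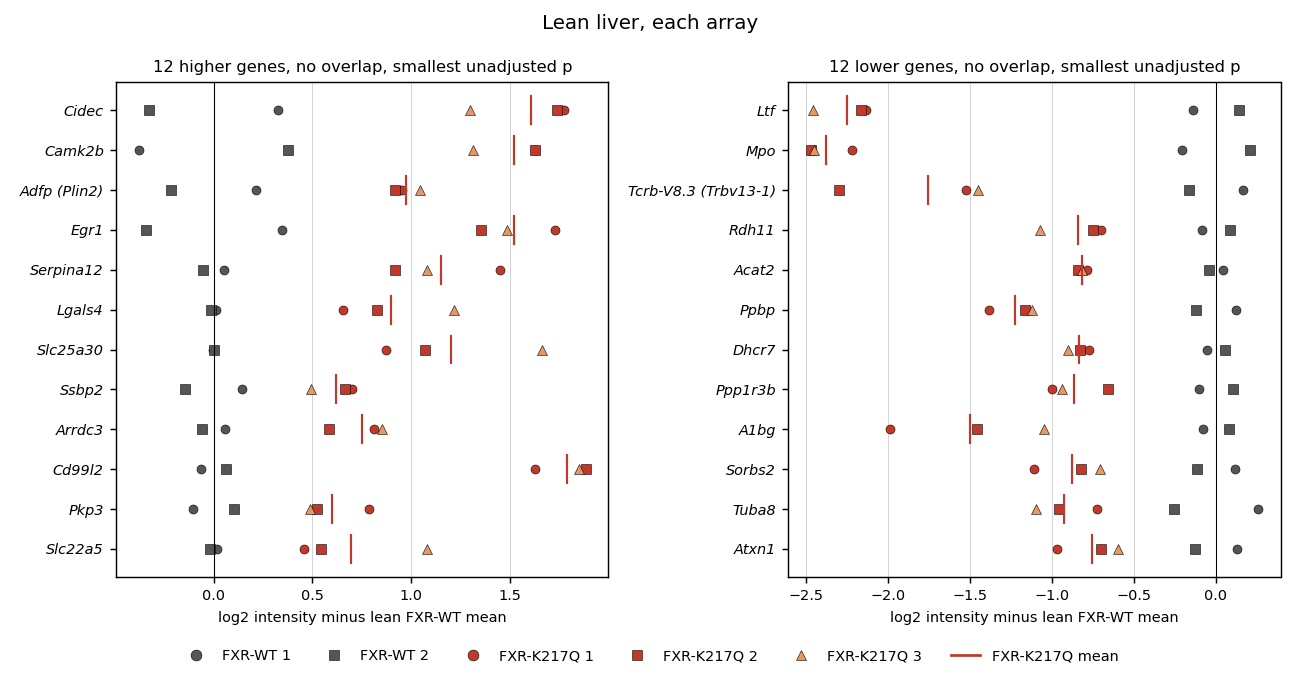
Each row is 1 gene, the x axis is the log2 intensity minus the mean of both lean FXR-WT arrays, points are single arrays and the bar is the FXR-K217Q mean. The 12 higher and 12 lower genes with the smallest unadjusted p and no overlap between groups are shown, from Cidec (1.60) and Ltf (-2.26) at the top.

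Genes on the cholesterol synthesis lists lay lower with FXR-K217Q, all 19 of those tested, with a median difference of -0.82 (-0.92 without FXR-K217Q replicate 3). The 19 include Rdh11, a retinol dehydrogenase listed with them. Of these, 14 had an unadjusted p under 0.05 on the lower side, where the share over all genes was 4.25%, and 14 had groups that did not overlap. The liver makes cholesterol from acetyl-CoA through mevalonate and squalene, and the transcription factor SREBP2 switches the genes of this route on together when sterol is scarce. The factor NF-Y, which binds the letters CCAAT, is a known partner of SREBP proteins at such promoters. Promoters of the tested genes, 250 bases before to 50 bases after the RefSeq start site (GRCm38.p6), were searched on both strands for CCAAT. They were available for 15 of the 19 genes, and 14 of these hold it in at least 1 of their promoters, all but Acat2, against 41.1% of the 27025 genes with a promoter in that table. The sterol regulatory element in the form TCACNCCAC was in no window of the 15 synthesis genes (1.44% of all genes), and the inverted repeat that FXR can bind, searched as AGGTCA, any 1 base and TGACC, was in none either (0.0333%). Neither absence says anything about the factors beyond these letters in these windows. A promoter each from the mevalonate part (Idi1), from the closing of the sterol ring (Lss) and from the last steps (Dhcr7) are shown because these genes stand for the stages of the route, with CCAAT or its complement ATTGG in capitals, 5′ to 3′ on the plus strand, which is the gene's strand for all 3. Dhcr7 has 3 promoters in that table, and the other 2 hold no CCAAT. They lie at chr13:8885356-8885655, chr10:76531355-76531654 and chr7:143829964-143830263, and the CCAAT match nearest to the start site begins at position -14, -62 and -49 from it.
Idi1: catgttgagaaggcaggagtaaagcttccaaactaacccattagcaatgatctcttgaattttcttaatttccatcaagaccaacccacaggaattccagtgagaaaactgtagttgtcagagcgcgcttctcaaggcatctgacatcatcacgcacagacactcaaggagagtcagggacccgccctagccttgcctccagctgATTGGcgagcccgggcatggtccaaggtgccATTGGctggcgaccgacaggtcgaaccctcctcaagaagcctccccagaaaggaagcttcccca
Lss: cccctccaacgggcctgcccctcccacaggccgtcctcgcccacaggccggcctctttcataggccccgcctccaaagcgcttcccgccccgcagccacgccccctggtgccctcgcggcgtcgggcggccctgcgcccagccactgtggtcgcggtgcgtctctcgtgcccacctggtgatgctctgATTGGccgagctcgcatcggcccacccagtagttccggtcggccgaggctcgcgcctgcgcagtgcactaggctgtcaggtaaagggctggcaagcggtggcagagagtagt
Dhcr7: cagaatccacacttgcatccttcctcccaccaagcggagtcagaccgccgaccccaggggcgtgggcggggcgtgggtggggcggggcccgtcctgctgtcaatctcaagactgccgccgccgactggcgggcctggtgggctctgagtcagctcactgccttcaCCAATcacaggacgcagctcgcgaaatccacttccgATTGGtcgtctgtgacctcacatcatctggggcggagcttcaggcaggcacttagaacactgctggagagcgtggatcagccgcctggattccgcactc

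In the mevalonate part, all 7 tested genes had an unadjusted p under 0.05 on the lower side, with a median of -1.01 (-1.19 without FXR-K217Q replicate 3). Acat2, the cytosolic thiolase that starts the route, read 11.48 and 11.40 on the FXR-WT arrays and 10.65, 10.60 and 10.62 on the FXR-K217Q arrays (difference -0.82, SE 0.14, 1.76-fold lower, adjusted p = 0.149). The 3 FXR-K217Q values lay within 0.1 unit of each other and under both controls. Idi1, the isopentenyl diphosphate isomerase, read 9.67 and 10.06 against 8.64, 8.45 and 9.27 (difference -1.08, SE 0.30). Fdps, which makes farnesyl diphosphate, read 14.02 and 14.12 against 12.80, 12.84 and 13.48 (difference -1.03, SE 0.25, and -0.13 on its other probe). Pmvk, the phosphomevalonate kinase, gave -0.92 (SE 0.24). In Idi1, Fdps and Pmvk the third FXR-K217Q array lay between the controls and the other FXR-K217Q arrays. For Mvd, the mevalonate diphosphate decarboxylase, it did not lie apart from the controls at all, with 9.79 and 9.79 against 8.41, 8.10 and 9.83. Mvk, mevalonate kinase, was dim and overlapped, at 6.05 and 5.39 against 5.43, 5.24 and 5.16. Hmgcs1 and Fdft1 were not matched to a probe, and Ggps1 did not pass the detection filter.

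After squalene, all 12 genes lay lower, 7 of them with an unadjusted p under 0.05, and the median was -0.66 (-0.77 without FXR-K217Q replicate 3, -0.49 without replicate 1). Lss, lanosterol synthase, had the largest difference of the route, with 10.92 and 11.28 on the FXR-WT arrays against 9.50, 9.38 and 10.50 (difference -1.31, SE 0.31, 2.48-fold lower, adjusted p = 0.394). The third FXR-K217Q array was again the nearest to the controls. Rdh11, a retinol dehydrogenase placed in this list because SREBP proteins regulate it, read 11.39 and 11.56 against 10.77, 10.72 and 10.40, and its other probe gave -0.79 beside -0.84 (SE 0.14, adjusted p = 0.149). Dhcr7, which carries out the last reduction to cholesterol, averaged 10.78 ± 0.08 (SD, n = 2) in FXR-WT against 9.94 ± 0.06 (SD, n = 3) in FXR-K217Q livers, and its lowest FXR-WT value of 10.72 lay above every FXR-K217Q value (difference -0.84, SE 0.15, adjusted p = 0.149). In Rdh11 and Dhcr7 all 3 FXR-K217Q arrays lay low, replicate 3 lowest. Cyp51, the lanosterol demethylase, gave -0.90 (SE 0.28), and Nsdhl, a sterol dehydrogenase, -0.76 (SE 0.27). Sqle, the squalene epoxidase, overlapped because its FXR-K217Q replicate 3 stood at 12.21, against 12.14 and 12.43 in FXR-WT and 11.28 and 11.43 on the other FXR-K217Q arrays (difference -0.64, SE 0.40). Hsd17b7 did the same, with 12.09 on the third array against 11.95 and 12.11 in FXR-WT and 11.05 and 11.08 on the others.

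Among 11 regulators of sterol balance and uptake, the median was -0.34 (-0.15 without FXR-K217Q replicate 1, -0.54 without replicate 3), and 4 had an unadjusted p under 0.05, all lower. Stard4, a cytosolic sterol carrier, gave -0.58 (SE 0.19), and Srebf1, the lipogenic SREBP, -1.20 (SE 0.54), with 9.48 and 10.12 against 9.05, 9.02 and 7.71 (-0.76 without replicate 3). Srebf2 itself gave -0.34 (SE 0.23) with overlapping groups. Sterol export and LXR genes had a median of 0.03 over 10 members, with 0 at an unadjusted p under 0.05.

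The obese comparison of FXR-K217R with FXR-WT shares no array with the lean one. There 14 of the same 19 synthesis genes lay above 0, with a median of 0.13. The 2 differences were set against each other in the same limma fit. Over all genes 728 (4.71%) had an unadjusted p under 0.05 for the difference between both contrasts, and 12 of the 19 synthesis genes did, among them Dhcr7 (-0.84 lean, 0.40 obese), Acat2 (-0.82 and 0.13) and Fdps (-1.03 and 0.53). None of the 19 passed 5% FDR for it (0 of 15469 genes passed, 0%), and the smallest adjusted p among them was 0.708. That contrast changes diet group and mutation together, so they cannot be told apart in it. The starting levels differed too. Obese FXR-WT means were 8.51 for Dhcr7, 10.02 for Acat2 and 10.43 for Fdps, against 10.78, 11.44 and 14.07 in lean FXR-WT. For Idi1 and Mvd they were 6.05 and 6.49, against 9.87 and 9.79. The part of these lower levels in the obese differences was not tested.

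**Figure D2:**
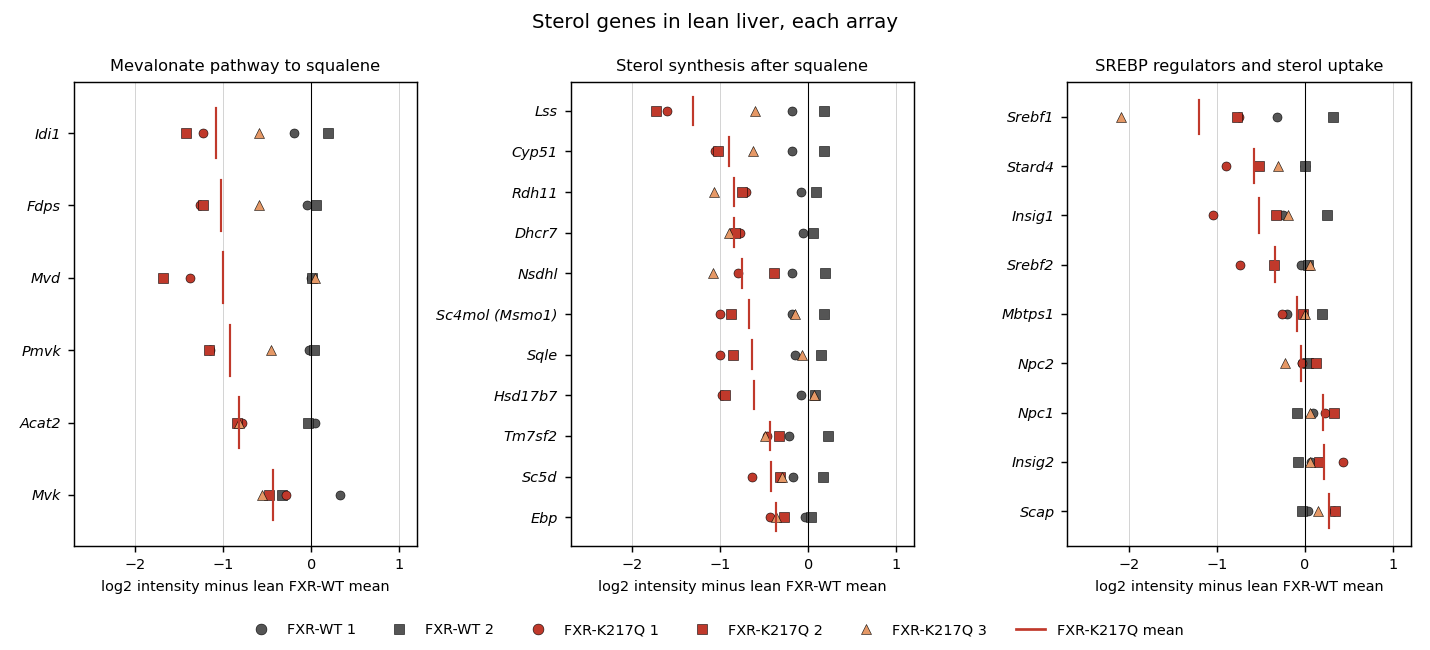
Each row is 1 sterol gene, the x axis is the log2 intensity minus the lean FXR-WT mean, points are single arrays and the bar is the FXR-K217Q mean. Some tested genes are not drawn. Every synthesis gene drawn (left and middle) has a mean below 0, and the third FXR-K217Q array (triangle) lies nearest to FXR-WT in genes such as Mvd and Sqle but not in Rdh11 or Dhcr7.

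Lipid droplet genes lay on the other side. Of 18 tested members, 14 lay above 0, 6 with an unadjusted p under 0.05 (2.94% over all genes on the higher side) and 1 lower (4.25%), and the median was 0.16 (0.26 without FXR-K217Q replicate 3). Cells store triglyceride in droplets coated by perilipins and CIDE proteins, and PPAR-gamma raises several of these genes in fatty liver. Cidec, a protein that enlarges droplets, read 7.75 and 7.09 on the FXR-WT arrays and 9.20, 9.16 and 8.72 on the FXR-K217Q arrays (difference 1.60, SE 0.25, 3.04-fold higher, adjusted p = 0.149). Every FXR-K217Q array was higher than both controls by more than the controls differed. Adfp (now Plin2), the perilipin that coats droplets in hepatocytes, read 11.23 and 10.80 against 11.97, 11.93 and 12.06 (difference 0.97, SE 0.16, 1.96-fold higher, adjusted p = 0.149). G0s2, an inhibitor of the lipase ATGL, read 10.82 and 10.47 against 11.76, 11.81 and 11.54 (difference 1.05, SE 0.28). Pnpla2, which is that lipase, lay higher too, by 0.48 (SE 0.14). Fitm2 (listed as D930001I22Rik), which helps droplets bud, gave 0.50 (SE 0.16), and Hilpda (listed as 2310016C08Rik), a droplet protein induced by low oxygen and fatty acids, gave 0.59 (SE 0.25). Pnpla3, a droplet lipase driven by SREBP1c, was the lower one, at 5.71 and 5.68 against 5.41, 5.03 and 4.54, and 1 of these 3 arrays detected it. Fabp4, Mogat1 and Plin1 did not pass the detection filter. Of 6 genes that define adipocytes, Adipoq, Lep, Retn and Plin1 did not pass the filter either. Cfd, the adipocyte-rich complement factor D, did, at 5.68 and 6.08 against 7.61, 7.60 and 7.18 (difference 1.58, SE 0.58), and Lipe gave 0.17 (SE 0.23). In bulk liver RNA fewer cells of a type and less RNA per cell cannot be told apart.

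Fatty acid synthesis genes lay lower on balance, with a median of -0.23 over 18 members, 13 below 0 (-0.15 without FXR-K217Q replicate 3). As medians of the deviation from the mean of the 5 lean arrays, the FXR-K217Q arrays stood at 0.02, -0.03 and -0.24. Both FXR-WT arrays stood at 0.08 and 0.16. The 4 lower ones with an unadjusted p under 0.05 were Acacb (-0.42, SE 0.15), the acetyl-CoA carboxylase whose product blocks fat oxidation, Acly (-0.47, SE 0.19), which supplies cytosolic acetyl-CoA, Acss2 (-0.55, SE 0.22, and -0.36 without replicate 3), which makes it from acetate, and Fasn (-0.69, SE 0.31), the fatty acid synthase. Pklr, liver pyruvate kinase, was the exception on the higher side, at 6.37 and 6.61 against 7.35, 7.40 and 7.05. Fasn read 6.67 and 6.96 against 6.24, 6.44 and 5.71, so here the third FXR-K217Q array was the lowest. Thrsp, a lipogenic regulator, gave -1.08 (SE 0.65) and rested on that array, which read 9.01 while the other 4 lay between 11.48 and 12.10. It was chosen after its values were seen.

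The list of fatty acid oxidation and PPAR-alpha genes showed a median of 0.19 over 26 members, with 22 above 0. At an unadjusted p under 0.05, 3 were higher and 2 lower. Fgf21, a hormone the liver releases in fasting and stress, read 5.37 and 5.59 against 7.12, 6.99 and 7.87 (difference 1.85, SE 0.52, 3.59-fold higher, adjusted p = 0.464). With no background correction the difference of this dim probe was 0.71. It lay higher on all 3 arrays and highest on the third. Ppara, the receptor for fatty acids, gave 0.68 (SE 0.19) and Decr1, a mitochondrial oxidation enzyme, 0.49 (SE 0.20). Cyp4a14, a fatty acid hydroxylase and one of the most responsive PPAR-alpha targets, lay the other way, at 13.51 and 13.11 against 12.54, 12.80 and 12.95 (difference -0.54, SE 0.18), as did the coactivator Ppargc1a (-0.68, SE 0.28). Of the acyl-CoA thioesterases, 2 were higher, Acot2 (0.83, SE 0.27, detected on 1 of 2 FXR-WT arrays, and -0.05 on its other probe) and Acot3 (1.13, SE 0.39, and 0.69 without replicate 3), among 11 tested. The carnitine transporter Slc22a5 read 10.24 and 10.21 against 10.68, 10.77 and 11.30 (difference 0.69, SE 0.17).

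In glucose metabolism the 26 genes had a median of 0.04, and the named differences pointed both ways. Ppp1r3b, the subunit that brings a phosphatase to glycogen and favours its synthesis, read 12.37 and 12.58 against 11.47, 11.82 and 11.54 (difference -0.87, SE 0.16, adjusted p = 0.149, and -1.05 on its other probe). Gys2, liver glycogen synthase, lay higher, at 7.66 and 8.22 against 8.97, 9.66 and 8.25 (difference 1.02, SE 0.35), and the third array was barely above the controls. Of 15 insulin and fasting genes, Pik3r1, the regulatory subunit of PI3-kinase, gave -0.58 (SE 0.15), and Tat, the tyrosine aminotransferase induced by fasting hormones, -1.41 (SE 0.33). Tat read 6.58 and 7.33 against 5.36, 5.81 and 5.45. Trib3, an inhibitor of AKT and a stress-induced gene, gave 0.71 (SE 0.29) and overlapped through replicate 3. Serpina12, the secreted serpin vaspin, read 10.65 and 10.54 against 12.05, 11.51 and 11.68 (difference 1.15, SE 0.20, 2.22-fold higher, adjusted p = 0.149, and 0.26 on its other probe). Inhbe, a subunit of activin E made by hepatocytes, gave 0.92 (SE 0.32, and 0.59 without replicate 3). Cish, the feedback inhibitor of growth hormone signalling, gave 1.17 (SE 0.39), and Igfals, the serum partner of IGF1, -0.54 (SE 0.20).

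Among the genes that FXR is best known for, Nr1h4 read 12.23 and 12.37 on the FXR-WT arrays and 12.34, 11.99 and 12.27 on the FXR-K217Q arrays (difference -0.10, SE 0.15). The groups overlapped. Which of the delivered and the endogenous transcript this probe can read was not stated in the sources used. Cyp7a1, whose product starts the classic bile acid pathway, read 12.23 and 12.60 against 12.08, 12.98 and 10.86 (difference -0.44, SE 0.89, 0.11 without the third array and -0.94 without the second). Cyp8b1, which makes cholic acid, read 12.18 and 13.19 against 13.47, 13.77 and 12.51 (difference 0.57, SE 1.24, with 0.06 without FXR-WT replicate 1 and 1.07 without FXR-WT replicate 2). For both enzymes the third FXR-K217Q array was the lowest of its group, and the spread inside the group exceeded the difference. Abcb11, the bile salt export pump, read 11.85 and 11.60 against 11.74, 11.92 and 11.45 (difference -0.02, SE 0.26). Abcb4, the phospholipid exporter of bile and an FXR target, lay higher on every array, at 12.76 and 12.41 against 13.18, 13.01 and 12.86 (difference 0.43, SE 0.16). It was the 1 of 11 transporters with an unadjusted p under 0.05. Of 15 genes of bile acid synthesis and conjugation (median -0.13, -0.02 without FXR-K217Q replicate 3 and -0.25 without FXR-WT replicate 1) the 1 such gene was Akr1d1, the bile acid 5-beta reductase, with -0.74 (SE 0.30, detected on 2 of 3 FXR-K217Q arrays, and -0.43 without the third array). Of 17 other FXR targets (median -0.06, 0.10 without FXR-K217Q replicate 3 and -0.16 without FXR-WT replicate 1), Sdc1, a heparan sulfate carrier that FXR induces in human liver cells, gave -0.65 (SE 0.20), and Sqstm1, the autophagy receptor p62, 0.42 (SE 0.14). Sqstm1 was even within each group, at 12.57 and 12.66 against 13.05, 13.04 and 13.02. Sdc1 gave -0.66 in obese FXR-K217R livers as well. Nr0b2, the corepressor SHP that FXR induces, did not pass the detection filter. Among the nuclear receptor partners, the coactivator Ncoa2 gave -0.62 (SE 0.21, detected on 1 of 3 FXR-K217Q arrays, with -0.34 and -0.01 on its other probes).

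Inflammatory genes were mixed: most NF-kB inflammatory genes lay higher, most neutrophil genes lower, and acute phase genes split within the FXR-K217Q group. Of 35 NF-kB inflammatory genes, 27 lay above 0 and 5 had an unadjusted p under 0.05, all higher, with a median of 0.27. The median was 0.17 without FXR-K217Q replicate 1 and 0.15 without FXR-WT replicate 2. Ccl2, the chemokine that draws monocytes, read 5.84 and 4.95 against 7.61, 6.20 and 6.54 (difference 1.38, SE 0.39, adjusted p = 0.464, and 0.48 with no background correction), and it was detected on 1 of 2 FXR-WT arrays and on all 3 FXR-K217Q arrays. Cxcl10, an interferon-induced chemokine, read 8.70 and 7.80 against 10.48, 9.44 and 8.89 (difference 1.35, SE 0.52). Cxcl2, which draws neutrophils, read 5.74 and 5.16 against 7.19, 6.35 and 5.85 (difference 1.01, SE 0.36, and 0.27 on its other probe). FXR-K217Q replicate 1 was the highest array for all 3, and FXR-WT replicate 2 the lowest. Ccl7, another monocyte chemokine, gave 1.33 (SE 0.46) with overlap. The list holds 4 further tested chemokines, picked here with values in view, and Cxcl1 (0.42), Ccl3 (0.29), Ccl4 (0.09) and Ccl5 (0.09) all had overlapping groups. Ccl7 and Cxcl2 were each detected on 1 of 2 FXR-WT arrays. Irf1, a transcription factor induced by interferon, gave 0.51 (SE 0.16), with all 4 other probes also positive. Tnf read 5.67 and 5.71 against 6.74, 5.96 and 5.99 (difference 0.54, SE 0.28), and Il1b 8.10 and 7.65 against 8.79, 7.98 and 8.64 (difference 0.60, SE 0.43). Of 27 interferon response genes 2 had an unadjusted p under 0.05, both higher (over all genes 2.94% higher and 7.2% in either direction). They were the immunoproteasome subunit Psmb8 (0.44, SE 0.17) and the peptide transporter Tap1 (0.48, SE 0.20). The median of this list was 0.07, and 0.01 to 0.32 when single arrays were left out. Immediate early genes, which signalling switches on within minutes, included Egr1, at 10.06 and 9.38 against 11.45, 11.07 and 11.20 (difference 1.52, SE 0.26, 2.87-fold higher, adjusted p = 0.149). Egr1 was higher on all 3 arrays. Egr2 (0.99, SE 0.27), Junb (0.87, SE 0.25), Atf3 (0.80, SE 0.34) and Fosb (0.52, SE 0.23, detected on 1 of the 5 lean arrays) also had an unadjusted p under 0.05, and the list's median over 18 members was 0.39 (0.21 without FXR-WT replicate 2 and 0.64 without FXR-WT replicate 1).

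Neutrophil genes had a median of -0.55 over 14 members (-0.87 without FXR-K217Q replicate 3 and -0.16 without replicate 2), 12 of them below 0. The 5 members with the lowest differences code for granule proteins. Ltf, lactoferrin of the secondary granules, read 7.34 and 7.62 against 5.34, 5.31 and 5.02 (difference -2.26, SE 0.29, adjusted p = 0.149), the smallest unadjusted p of all genes (1.01e-05). It was detected on 1 of 3 FXR-K217Q arrays, so the size of this difference is uncertain, and with no background correction it was -0.84. Mpo, myeloperoxidase of the primary granules, read 6.83 and 7.25 against 4.82, 4.57 and 4.59 on a probe that no FXR-K217Q array detected, so it was at least 3.38-fold lower there (SE of the difference 0.38), and the difference was -0.80 with no background correction. Its other probes gave -1.94 and -0.12. Camp, the precursor of cathelicidin, gave -1.57 (SE 0.38) with 1 of 3 FXR-K217Q arrays detecting it, and Ngp, a neutrophilic granule protein not detected on any FXR-K217Q array, was at least 1.38-fold lower. In these 4 genes all FXR-K217Q arrays lay under both controls. Prtn3, proteinase 3 of the primary granules, lay low on 2 arrays only, with 10.26 and 10.45 in FXR-WT against 8.00, 7.81 and 10.25. S100a8 and S100a9, the abundant cytosolic proteins of mature neutrophils, lay close to the controls, with differences of -0.16 (SE 0.30) and 0.19 (SE 0.25). Csf3r, the G-CSF receptor, was the 1 member with an unadjusted p under 0.05 on the higher side (0.58, SE 0.23). Prtn3, S100a8 and S100a9 were chosen after their values were seen.

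Set beside the obese comparison, 6 of 15469 genes (0.0388%) passed 5% FDR there, and all 6 are on the neutrophil list: Ltf (-3.25), Mpo (-3.22), Camp (-3.02), Ngp (-2.87), S100a9 (-2.56) and S100a8 (-2.29). For S100a9 the difference between the lean and the obese contrast had the smallest adjusted p of all genes (0.122), which did not pass. Ppbp, a chemokine precursor of platelets, lay lower in lean FXR-K217Q livers as well, at 7.29 and 7.05 against 5.78, 6.01 and 6.05 (difference -1.22, SE 0.22, -1.26 on its other probe, -0.49 with no background correction, adjusted p = 0.149). A variable segment of the T cell receptor, Tcrb-V8.3 (now Trbv13-1), also lay lower, at 7.17 and 6.84 against 5.48, 4.70 and 5.55 (-0.60 with no background correction), and 2 of 3 FXR-K217Q arrays detected it. The T and NK cell list ran the other way, with 10 of 14 members above 0. Of 8 erythroid genes 7 lay below 0, with a median of -0.12 (-0.39 without FXR-K217Q replicate 1). Without FXR-K217Q replicate 3 the erythroid median was -0.06, and 3 of the 8 lay above 0. Tfrc, the transferrin receptor, gave -0.54 (SE 0.17). The part of blood content in the platelet, erythroid and neutrophil genes was not tested.

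Acute phase proteins, which hepatocytes secrete on IL-6 and IL-1 signals, lay low on FXR-K217Q replicates 1 and 2 and not on replicate 3. Their median was -0.18 over 21 members and -0.47 without replicate 3. Saa2 read 12.03 and 12.05 in FXR-WT against 9.84, 9.03 and 12.20 (difference -1.68, SE 1.03). Orm2, an orosomucoid, read 14.70 and 14.91 against 13.14, 13.06 and 14.91, and Serpina3n, a serpin of the same response, 13.83, 13.65 and 14.82 against an FXR-WT mean of 14.99. Lcn2, the iron-binding lipocalin, repeated this with 14.92 and 14.98 against 14.09, 13.98 and 15.12 (difference -0.55, SE 0.35). The brightest Saa1 probe read 15.08 and 15.11 against 15.14, 14.72 and 15.20 (difference -0.07, SE 0.18), near the highest value of any gene on a lean array (15.2). The other Saa1 probe gave -1.46, and the mean of both -0.76, so the probes disagree.

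**Figure D3:**
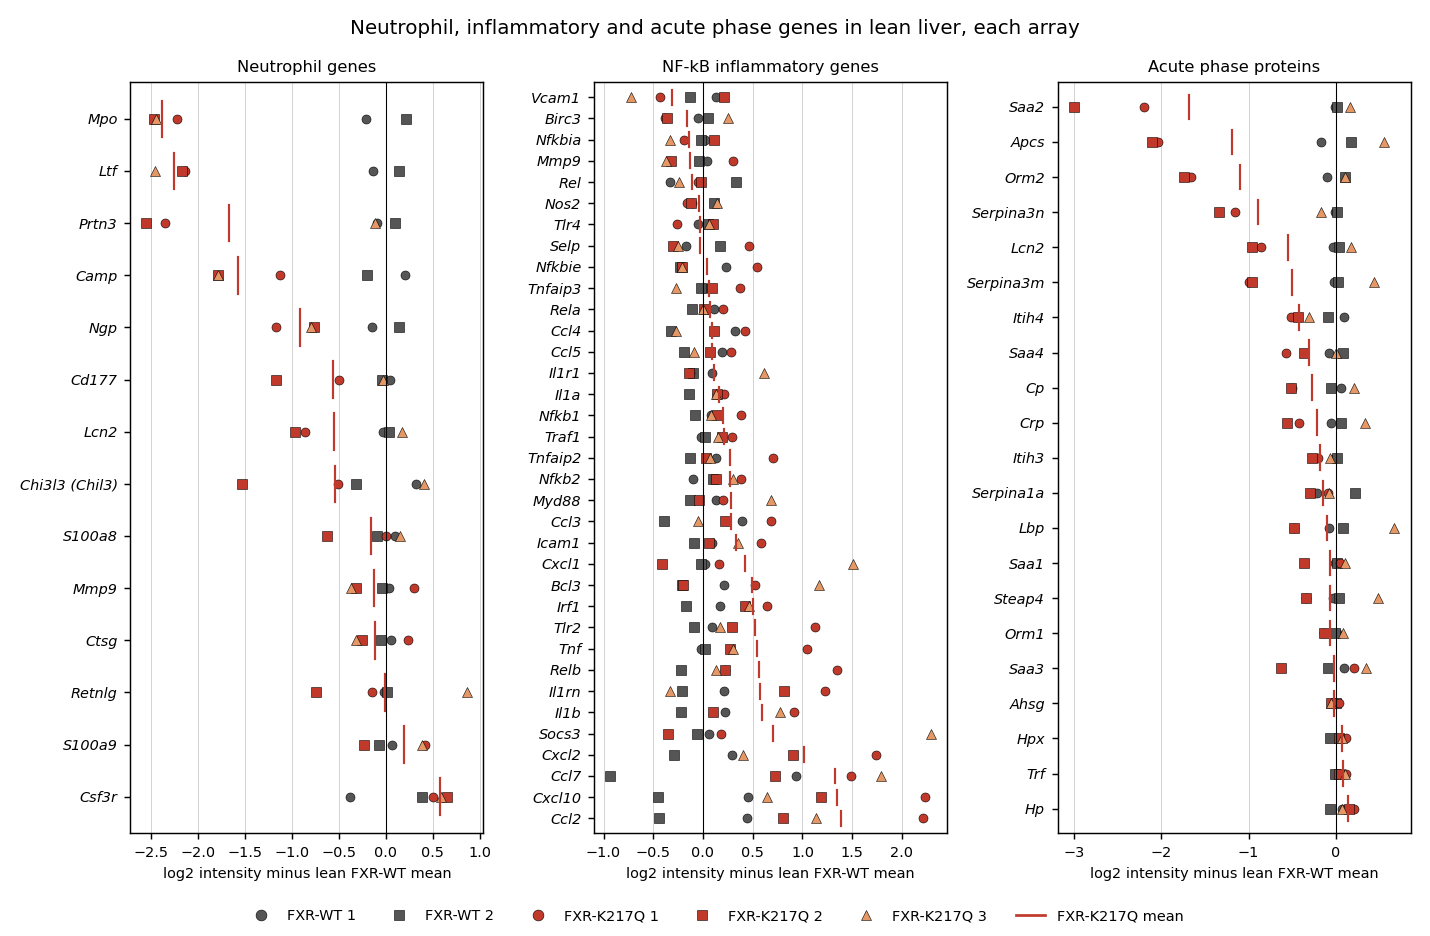
Each row is 1 gene, the x axis is the log2 intensity minus the lean FXR-WT mean, points are single arrays and the bar is the FXR-K217Q mean. Ltf, Mpo, Camp and Ngp lie low on all 3 FXR-K217Q arrays, Ccl2 and Cxcl10 lie high on all 3, and Saa2, Apcs and Orm2 lie low on replicates 1 and 2 and not on replicate 3 (triangle).

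Other liver cell types were followed through their markers. Of 15 endothelial markers 14 lay below 0, with a median of -0.27 (-0.20 without FXR-K217Q replicate 3). The arrays of the FXR-K217Q group differed here. As medians of the deviation from the mean of the 5 lean arrays, they stood at -0.19, 0.14 and -0.25, against 0.19 and 0.16 in FXR-WT. Ehd3, a marker of sinusoidal endothelium, read 9.28 and 9.30 against 8.46, 8.80 and 8.20 (difference -0.80, SE 0.17, adjusted p = 0.298), and Oit3 gave -0.50 (SE 0.22). Of 26 stellate cell and matrix genes 22 lay above 0 with a median of 0.36, which was 0.12 without FXR-K217Q replicate 1 and 0.02 without FXR-WT replicate 2. Col1a1, the main fibrillar collagen, read 8.24 and 7.23 against 9.30, 8.60 and 8.44 (difference 1.04, SE 0.50), while Ctgf (now Ccn2), a matrix factor driven by YAP and TGF-beta, lay lower on every array, at 10.66 and 10.25 against 9.66, 9.97 and 8.73 (SE of the difference 0.33, and -0.64 without replicate 3). Kupffer cell markers were split, with 5 of 11 members above 0 and 6 below. Their median was -0.22, with 0 at an unadjusted p under 0.05, and the highest member gave 0.44. The lowest was Vsig4, the complement receptor of these macrophages, at 11.39 and 11.89 against 10.70, 10.88 and 10.15 (difference -1.06, SE 0.53). Monocyte, MHC class II, T and NK cell, and B cell lists had medians of 0.12, 0.25, 0.21 and -0.24, again with 0 members at an unadjusted p under 0.05. Without FXR-WT replicate 2 the first 3 became -0.07, 0.11 and -0.03, and without FXR-WT replicate 1 the B cell median became -0.09. Leaving out FXR-K217Q replicate 3 gave -0.01, 0.34, 0.32 and -0.19. Most pancreas acinar genes did not pass the detection filter, and the 4 that did had a median of 0.07.

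What set FXR-K217Q replicate 3 apart can be read from the same lists. All 28 tested cell cycle genes averaged higher on replicates 1 and 2 than on replicate 3, with a median gap of 1.04, where the median over all genes was -0.01. Ccnb1, cyclin B1, read 7.89 and 8.41 against 5.63, with 6.76 and 6.02 in FXR-WT. Unfolded protein and stress response genes ran the other way in 26 of 29 members, with a median gap of -0.85: the chaperone Hspa5 read 8.57 and 8.47 on replicates 1 and 2, 10.20 on replicate 3, and 8.67 and 9.43 in FXR-WT. The NRF2 and glutathione list, a defence against oxidants, lay higher on replicates 1 and 2, with a median gap of 0.75. Cbr3, a carbonyl reductase, read 13.47 and 12.98 there, 10.58 on replicate 3, and 11.22 and 10.89 in FXR-WT. As a result the NRF2 median of 0.43 over 26 genes became 0.65 without replicate 3, and 0 of its members had an unadjusted p under 0.05. Hamp2, a hepcidin paralog, read 12.05 and 11.95 on replicates 1 and 2 and 7.24 on replicate 3, and H19, an imprinted fetal liver transcript, 11.14 and 9.92 against 5.50. FXR-WT lay between them, at 10.34 and 10.31 for Hamp2 and at 9.31 and 7.58 for H19. The clock-driven factor Dbp read 12.87 and 12.85 on replicates 1 and 2 and 10.45 on replicate 3, and Arntl, the clock activator BMAL1, 6.55 and 6.30 against 8.09, with FXR-WT between them for both. These single genes were picked with their values in view. The part of clock state, cell cycle or stress in the comparison with FXR-WT was not tested.

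**Figure D4:**
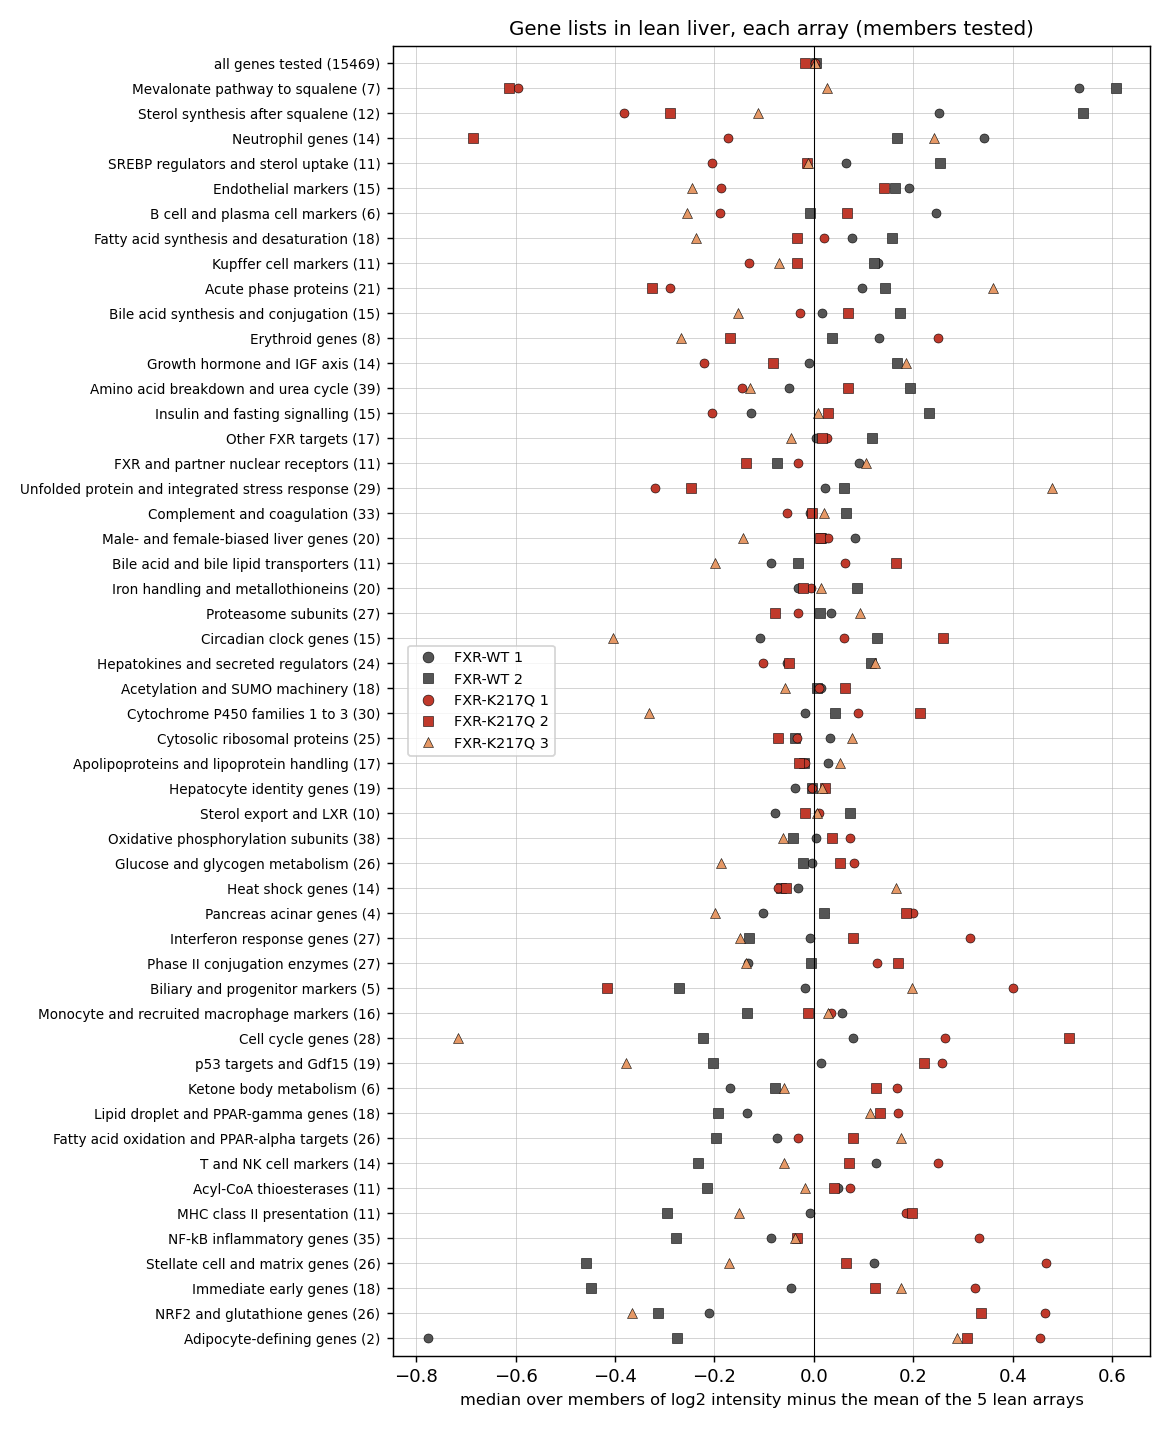
Each row is a gene list with the number of tested members, and each point is the median over its members, on 1 array, of the log2 intensity minus the mean of the 5 lean arrays. Mevalonate genes separate both FXR-WT arrays from all 3 FXR-K217Q arrays, while for cell cycle, unfolded protein response, acute phase and NRF2 genes replicate 3 of FXR-K217Q (triangle) stands opposite replicates 1 and 2.

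Among the 24 genes chosen by unadjusted p and no overlap, those that follow are on no list, except A1bg, which is on the list of male- and female-biased liver genes. On the higher side Camk2b, a subunit of the calcium-dependent kinase CaMKII, read 5.79 and 6.55 against 7.79, 7.80 and 7.48 (difference 1.52, SE 0.24, adjusted p = 0.149, and 0.69 with no background correction). Lgals4, a galectin typical of gut epithelium, read 8.90 and 8.87 against 9.54, 9.72 and 10.10 (difference 0.90, SE 0.16). Cd99l2, an adhesion molecule, read 6.04 and 6.16 against 7.73, 7.98 and 7.95 (difference 1.79, SE 0.42, adjusted p = 0.372, and 0.84 with no background correction), with a narrow spread within both lean groups. Slc25a30, a mitochondrial carrier, was detected on no FXR-WT array and was at least 1.86-fold higher, with a difference of 0.34 when no background was corrected. Arrdc3, an arrestin-domain protein of metabolic control, gave 0.75 (SE 0.17), Ssbp2, a DNA-binding adaptor, 0.62 (SE 0.14), and Pkp3, a desmosomal plakophilin, 0.60 (SE 0.14). On the lower side A1bg, a serum glycoprotein with sex-biased liver expression in mice, read 6.44 and 6.60 against 4.53, 5.06 and 5.47 (difference -1.50, SE 0.28, adjusted p = 0.166, and -0.46 with no background correction), and 1 of 3 FXR-K217Q arrays detected it. Sorbs2, an actin adaptor, gave -0.88 (SE 0.17), the tubulin Tuba8 -0.93 (SE 0.19, and -1.05 on its other probe) and the nuclear protein Atxn1 -0.76 (SE 0.16). All of these held the same side on each of the 3 FXR-K217Q arrays, which the choice of genes without overlap fixes. Housekeeping groups stayed near 0: oxidative phosphorylation subunits had a median of 0.04 over 38 genes, cytosolic ribosomal proteins -0.00 over 25 and proteasome subunits -0.02 over 27.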

How the data were processed

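The deposited non-normalized table holds, per the file headers, 4 measures of every probe on every array: the mean bead intensity, the count of beads, the standard error over beads and a detection p-value. Total RNA was turned into biotinylated cRNA with the Illumina TotalPrep kit, per the labels. The authors also deposited normalized log2 values (limma 3.12.3, per the submitters' processing notes), which differ from those computed here by 0.0271 at most.

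Intensities were background-corrected and quantile-normalized over 11 arrays by the neqc function (limma 3.58.1, R 4.3.3, offset 16), which took its background from the detection p-values. Those probes detected (p-value under 0.05) on 2 or more arrays were kept, 21485 in all, and the brightest per symbol gave 15469 genes. One model with 4 group means was fitted to all 11 arrays with lmFit and eBayes, two-sided, with Benjamini-Hochberg adjustment at 5% FDR over all genes. If a probe went undetected throughout a group, the fold is a bound against the dimmest detected signal of each array. The offset shrinks differences of dim genes. The main model used no pairing by replicate number. Deviations from the group mean correlated at 0.234 for number 1 and 0.0165 for number 2. As the deviations of 2 FXR-WT arrays mirror each other, this cannot show whether the numbers pair the arrays.

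The comparison, the 51 gene lists (875 genes tested) and the naming rule were chosen with earlier results of these data known. The rule takes the 12 higher and 12 lower genes with the smallest unadjusted p whose lean groups do not overlap, without clone symbols. It adds Nr1h4, Cyp7a1, Cyp8b1, Abcb11, Tnf, Il1b, Ccl2, Saa1, Lcn2, Fgf21, Cidec, Plin2 and Sqle, and up to 5 members per list with the smallest unadjusted p. Outside the rule, Ttr, Apoa1, Cyp2e1, Srebf2 and Apcs were picked with values in view, as were other genes so marked. Some genes the rule takes are not reported here. Symbols are those of the deposited table, with current ones from the RefSeq table of GRCm38.p6. Promoters are from RefSeq. Alternatives were other normalizations, filters, moderation, a fit of the 5 lean arrays alone, array weights, a replicate block and leaving out each array. On simulated data 8 of 15469 genes were false calls.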

Additional observations from a re-analysis of the deposited data

How the results depend on the processing

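Of 23 alternatives, 3 gave 1 gene past 5% FDR: Ltf with trended and robust moderation (adjusted p = 0.0364 in limma) and without obese FXR-WT replicate 3 (0.0142), and Cd99l2 without obese FXR-K217R replicate 3 (0.00646). Leaving out single arrays thus gave 0 to 1 gene. For the contrast of lean and obese differences, 1 gene (S100a9) passed with an offset of 50 and 1 with trended and robust moderation. At an unadjusted p under 0.05, no filter on dim probes gave 805 higher and 1176 lower genes and array weights 825 and 1005. Leaving out single arrays gave 305 to 843 higher and 476 to 1014 lower, the highest counts being those without lean FXR-K217Q replicate 3. Genes without overlap numbered 3151 higher and 3458 lower with no filter, and 1592 to 3537 higher and 1859 to 3801 lower when single arrays were left out, where fewer arrays make overlap rarer. The sign turned for Abcb11 with array weights (0.0565) and with the replicate block (0.0947). When single arrays were left out, Abcb11 ranged from -0.15 to 0.10, Nr1h4 from -0.17 to 0.00852, Saa1 from -0.16 to 0.0770 and Cyp7a1 from -0.94 to 0.11, each above 0 only without 1 or 2 of the lean arrays (Cyp7a1 and Abcb11 without FXR-K217Q replicate 3, Abcb11 also without FXR-WT replicate 1, and Nr1h4 and Saa1 without FXR-K217Q replicate 2). In each the cause was not tested. The other 34 of 38 named genes kept their sign in every alternative. Sizes moved more: with no background correction the fold of 10 of the 38 moved by over 1.5 times, each toward 0, with log2 differences of -0.84 for Ltf, -0.80 for Mpo, -0.60 for Tcrb-V8.3, -0.49 for Ppbp, -0.46 for A1bg, 0.71 for Fgf21, 0.48 for Ccl2, 0.84 for Cd99l2, 0.69 for Camk2b and 0.34 for Slc25a30. With the replicate block 0 genes passed 5% FDR, with 431 higher and 677 lower at an unadjusted p under 0.05. Of 51 list medians, 26 kept their sign in every alternative. The headers give no slide, so the slide as a block was not run. With 2 and 3 arrays per group, the median SE of a difference was 0.19.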

Other observations

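Several genes outside the lists and the naming rule were chosen after their values were seen. AI324046, listed under a clone symbol only, had the largest difference of all genes: it was detected on no FXR-WT array (4.60 and 4.89) and on all 3 FXR-K217Q arrays (6.78, 8.30 and 7.72), so it was at least 5.31-fold higher (adjusted p = 0.149 in limma), and its other probes gave 2.22 and 0.95. Tsc22d3, the glucocorticoid-induced protein GILZ, read 12.99 and 13.08 in FXR-WT against 11.65, 12.57 and 11.80 (difference -1.03, SE 0.29, and -0.85 on its other probe). Ddit4, a stress-induced inhibitor of mTORC1, read 11.03 and 10.91 against 9.57, 10.58 and 9.18 (difference -1.20, SE 0.50). In both genes FXR-K217Q replicate 2 was the nearest to the controls.

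Clec4d, a C-type lectin of myeloid cells, read 6.45 and 5.43 in FXR-WT against 8.07, 7.26 and 6.74 in FXR-K217Q livers (difference 1.42, SE 0.40), and Ubd, a ubiquitin-like protein induced by inflammatory cytokines, 10.70 and 9.89 against 12.48, 12.06 and 10.78 (difference 1.48, SE 0.64). Ltc4s, leukotriene C4 synthase, was detected on no FXR-WT array and lay at least 1.85-fold higher. Treml1, a platelet receptor, was detected on both FXR-WT arrays and no FXR-K217Q array, at least 1.58-fold lower. Krt23, a keratin, and Cyp2b9, a cytochrome P450 that is female-biased in mice, lay high on FXR-K217Q replicates 1 and 2 only: Krt23 read 9.28 and 8.91 there and 5.66 on replicate 3, and Cyp2b9 9.01 and 10.19 there and 6.73 on replicate 3, against 6.77 and 6.00, and 7.16 and 5.96, in FXR-WT.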
